A study of Homo sapiens with 18 samples.

Results

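The AP-1 set examined here holds 8 genes, FOS, FOSB, FOSL1, FOSL2, JUN, JUNB, JUND and ATF3, out of 23604 genes listed in at least 1 RNA-Seq library. They were chosen by name, as the rows carrying the gene identifiers 2353, 2354, 8061, 2355, 3725, 3726, 3727 and 467, and each gene has a single row. The cells were MCF10A-Er-Src, a non-tumour human breast epithelial line that carries a v-Src kinase switched on by tamoxifen. NT cells were left without tamoxifen, and TAM cells had been transformed with it. Both kinds were incubated for 4 h with DMSO, the solvent, or with 1 dose of triptolide (TPL), a plant-derived compound whose target is XPB, a subunit of the general transcription factor TFIIH. This gives 4 groups (NT, NT+TPL, TAM and TAM+TPL), each with 2 poly-A RNA-Seq libraries and 1 list of RNA polymerase II (RNAPII) ChIP-Seq peaks near a transcription start site (TSS).

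AP-1 is a dimeric transcription factor whose subunits share a basic leucine zipper, with basic residues that contact DNA and a leucine zipper that joins the partners. JUN proteins can pair with each other or with a FOS protein, whereas FOS proteins need a JUN partner. ATF3 belongs to the ATF/CREB branch and can pair with JUN proteins. FOS, FOSB, JUN, JUNB and ATF3 are classical immediate early genes, transcribed within minutes of a growth factor or stress signal into short-lived mRNAs, while JUND is known for a steadier level. In epithelial cells AP-1 acts downstream of Src, Ras and the MAP kinases.

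The bases just before the TSS are shown for the 5 immediate early members because these promoters are where the RNAPII peaks described further on lie. They are the 100 bases upstream of the TSS of the Ensembl canonical transcript, read on the gene's strand from build GRCh37 (hg19): chr14:75745431-75745530 on the plus strand for FOS, chr19:45971154-45971253 (plus) for FOSB, chr1:59249720-59249819 (minus) for JUN, chr19:12902200-12902299 (plus) for JUNB and chr1:212782003-212782102 (plus) for ATF3. Capitals mark TGACGT, the first 6 letters of the cAMP response element, on either strand, the related TGACATCA, to which JUN dimers with ATF proteins are known to bind, and the TATA box TATAAA.
FOS: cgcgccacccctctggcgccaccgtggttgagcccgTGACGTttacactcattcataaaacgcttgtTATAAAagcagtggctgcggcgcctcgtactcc
FOSB: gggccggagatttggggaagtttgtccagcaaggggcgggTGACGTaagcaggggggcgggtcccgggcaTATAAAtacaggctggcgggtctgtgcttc
JUN: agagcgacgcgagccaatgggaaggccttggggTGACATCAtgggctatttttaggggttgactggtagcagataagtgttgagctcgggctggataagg
JUNB: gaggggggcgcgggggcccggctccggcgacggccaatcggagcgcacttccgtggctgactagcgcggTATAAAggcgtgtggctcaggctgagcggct
ATF3: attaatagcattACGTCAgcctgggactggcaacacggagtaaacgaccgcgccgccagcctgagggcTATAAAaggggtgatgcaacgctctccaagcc

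Within 250 bases upstream of the TSS, TATAAA was found in 4 of 8 members (FOS, FOSB, JUNB and ATF3), against 9.30% of 19737 promoters of protein-coding genes. The first base of TATAAA lay 33 bases before the TSS in FOS, 30 in FOSB, 31 in JUNB and 32 in ATF3. TGACGT was found in 6 members (FOS, FOSB, FOSL1, FOSL2, JUND and ATF3), against 8.54% of promoters. It began 64, 60 and 66 bases before the TSS of FOS, FOSB and FOSL2, and in JUND 2 of its 3 matches lay in a complete TGACGTCA, which reads the same on both strands and which 2.39% of promoters hold. TGACATCA was found in JUN alone among the members, 67 bases before the TSS, against 1.92% of promoters. The AP-1 site TGANTCA was found in 0 of 8 windows, against 4.71% of promoters, and the CArG box in 0, against 1.13%. The searches covered both strands, and matches to TGACGTCA are also matches to TGACGT. Bases farther than 250 upstream of the TSS were not searched, so a count of 0 does not speak of sites beyond the window. A match is a description of letters and not a measured binding site.

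Library totals were between 7461309 and 8349448 expected counts, and the 8 genes together took 0.487 and 0.498% of the counts in NT and 0.478 and 0.377% in TAM, and with TPL 0.123 and 0.0857% in NT and 0.0919 and 0.0916% in TAM cells. The 8 markers listed as basal epithelial for the check of the line were above 0 in every library. KRT5, a basal keratin, was between 434 and 6250 FPKM. TP63, from the same list, was between 0.28 and 24.2 FPKM and was lower with TPL, with log2 fold changes of -5.31 in NT and -5.04 in TAM cells. KRT5, KRT6A, KRT14 and KRT17 were also lower with TPL in both states. ITGB4 (0.72 in NT and 0.32 in TAM cells) and EPCAM (0.43 and 0.47) were higher. CDH1 was lower in NT (-0.32) and higher in TAM cells (0.27). The summed level of the 8 markers was 16968 to 18736 FPKM in NT, 10788 to 13770 in NT+TPL, 7474 to 7804 in TAM and 3884 to 4253 in TAM+TPL. The summed level of the immune markers was 75.4 to 90.3 FPKM in NT, 141 to 142 in NT+TPL, 306 to 331 in TAM and 459 to 520 in TAM+TPL, and most of it was CD68 and LYZ. Between TAM and NT cells with DMSO, CD68 was higher (log2 fold change 2.65), while LYZ (-0.34), CD14 (-0.47) and PTPRC (-0.02) were not. The T cell marker CD3E was at 0 in 5 of 8 libraries. The summed fibroblast markers stayed between 4.29 and 13.0 FPKM with COL3A1 at 0 in 5 libraries, and the summed endothelial markers between 0.78 and 2.45 with CDH5 at 0 in 8. The part of these differences in the results below was not tested.

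All values given as FPKM (fragments scaled by transcript length and by the mapped reads of the library) are levels relative to the rest of the same library. In bulk samples fewer cells that express a gene and less RNA per cell cannot be told apart. In NT cells with DMSO, FOS was the most abundant member at 503 and 576 FPKM and FOSB followed at 520 and 507. These 2 genes overlapped, and each was above the other 6 in both libraries. FOS then ranked 154 and 127 among all genes listed. JUND (225 and 175 FPKM), FOSL1 (186 and 189) and JUNB (187 and 185) formed a middle group whose neighbours overlapped, followed by JUN (141 and 175), ATF3 (97.9 and 82.9) and FOSL2 (15.1 and 21.9). The higher JUN library (175.07) lay just above the lower JUND library (174.51). FOSL2 was the lowest of the 8 in each of the 4 groups.

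**Figure D1:**
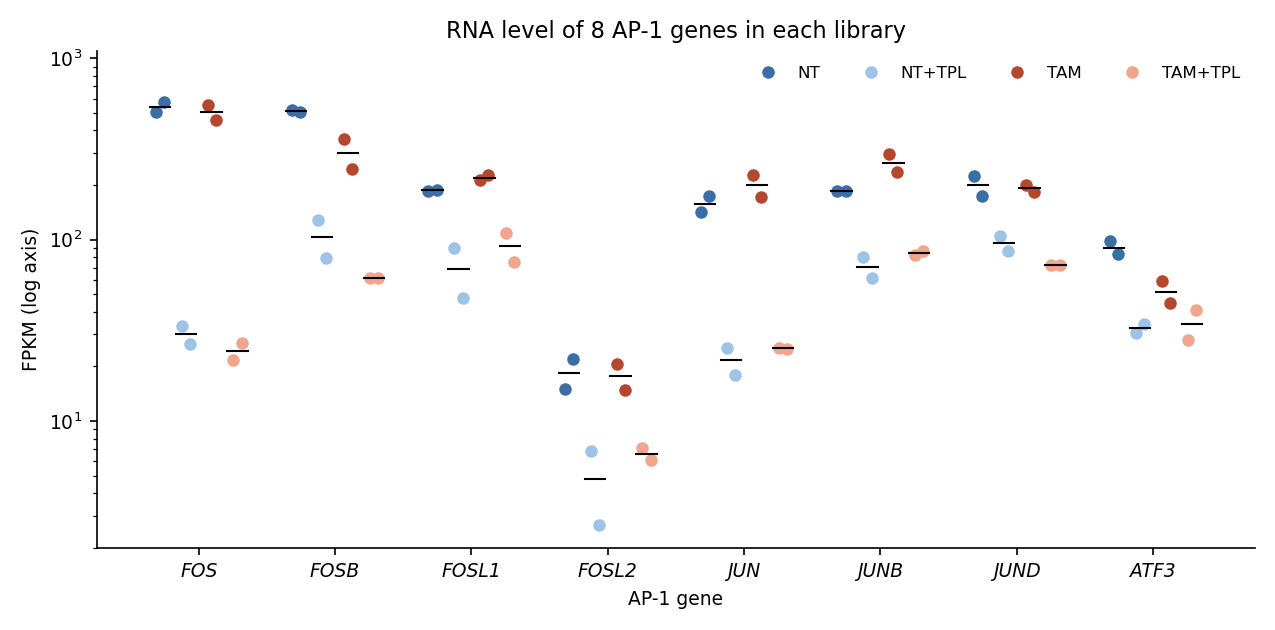
FPKM on a log axis of each AP-1 gene in each of 8 RNA-Seq libraries, coloured by group, with a black line at the mean of the 2 replicates. For every gene shown the libraries with TPL lie below the libraries with DMSO of the same cells. The share of all genes that do so was not counted. FOS moves the farthest, from 503 and 576 to 33.6 and 26.7 FPKM in NT cells.

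With TPL the RNA of nearly the whole family was lower, with the lowest fold changes for FOS and JUN, the partners of the classical AP-1 dimer. In NT cells 8 of 8 genes fell at an adjusted p of at most 0.05 (edgeR's quasi-likelihood test, adjusted by Benjamini-Hochberg over 16948 genes), where 19.8% of all genes tested did. In TAM cells 7 of 8 fell, against 18.6% of all genes, and ATF3 was the exception. Log2 fold changes lay between -4.17 and -1.07 in NT cells and between -4.42 and -0.66 in TAM cells, while the median of all genes tested was 0.09 and 0.05. The scaling of the libraries places most genes near 0, so fold changes and counts of genes that fell are relative to the other genes. With GAPDH as the reference these medians were -0.26 and -0.07. The study's stricter limits (adjusted p no higher than 0.001, and a change no smaller than 1.2 on the log2 scale) were met by FOS and JUN in NT cells, against 2.71% of genes called lower, and by FOS, JUN and JUNB in TAM cells, against 2.04%. Which members met them depended on the test. DESeq2 called 7 members in NT and 6 in TAM cells, and 1598 and 1393 of all genes. On the NT and NT+TPL libraries alone, edgeR called 0 members and 0 of all genes.

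FOS, the founding member of its subfamily, was at 503 and 576 FPKM in NT and at 33.6 and 26.7 in NT+TPL. In TAM cells it was at 555 and 454 FPKM with DMSO and at 21.8 and 26.8 with TPL. Thus 5.59% ± 1.05 of its DMSO level was left in NT and 4.82% ± 0.983 in TAM cells. Here ± is the error of a ratio of group means, carried from the SDs of both groups (n = 2 each). The rank of FOS among all genes listed went from between 127 and 175 to between 1919 and 2541. The log2 fold change was -4.17 (SE 0.20, adjusted p = 0.000178) in NT and -4.42 (SE 0.20, adjusted p = 0.000234) in TAM cells. Of the 16948 genes tested, 288 had a lower log2 fold change in NT cells and 215 in TAM cells.

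FOSB, which like FOS carries a transactivation domain in its full-length form, was at 520 and 507 FPKM in NT and 128 and 79.1 in NT+TPL. In TAM cells it was at 357 and 244 FPKM with DMSO and at 61.4 and 61.2 with TPL. It fell with log2 fold changes of -2.32 (SE 0.26, adjusted p = 0.00103) and -2.34 (SE 0.26, adjusted p = 0.00116), so that 20.1% of its level was left in NT and 20.4% in TAM cells. The 2 remaining FOS-related genes changed less. FOSL1, which encodes FRA1 and is known for a role in invasive growth, was at 186 and 189 FPKM in NT and 90.1 and 47.9 in NT+TPL, while the TAM libraries were at 213 and 226 with DMSO and at 108 and 75.7 with TPL. Its log2 fold changes were -1.45 (SE 0.28, adjusted p = 0.00813) and -1.23 (SE 0.28, adjusted p = 0.0159). FOSL2, which encodes FRA2, was at 15.1 and 21.9 FPKM in NT and 6.87 and 2.67 in NT+TPL, while the TAM libraries were at 20.7 and 14.8 with DMSO and at 7.14 and 6.10 with TPL. Its log2 fold changes were -1.97 (SE 0.41, adjusted p = 0.0111) and -1.47 (SE 0.40, adjusted p = 0.0313). The libraries with and without TPL did not overlap for any of the FOS genes, but the share of all genes without overlap was not counted. With a single library left out, FOSL2 in NT cells no longer passed without the second NT library (adjusted p = 0.0614), and in TAM cells neither FOSL1 nor FOSL2 passed without any 1 of the 4 TAM and TAM+TPL libraries (adjusted p from 0.0521 to 0.106 and from 0.0682 to 0.155).

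JUN, the partner with the strongest transactivation, was at 141 and 175 FPKM in NT and 25.2 and 18.0 in NT+TPL. In TAM cells it was at 226 and 173 FPKM with DMSO and at 25.2 and 25.0 with TPL. It fell with log2 fold changes of -2.88 (SE 0.22, adjusted p = 0.000342) and -3.04 (SE 0.22, adjusted p = 0.000367), which left 13.7 and 12.6% of its DMSO level. JUNB, which can oppose JUN at some promoters, kept more of its RNA. It was at 187 and 185 FPKM in NT and 80.7 and 61.2 in NT+TPL (log2 fold change -1.4, SE 0.17, adjusted p = 0.00137). In TAM cells it was at 297 and 236 FPKM and with TPL at 82.1 and 86.9 (log2 fold change -1.70, SE 0.17, adjusted p = 0.000827). JUND, whose expression depends least on growth signals, had the smallest change in NT cells. It was at 225 and 175 FPKM there and at 105 and 86.7 with TPL (log2 fold change -1.07, SE 0.16, adjusted p = 0.00318), with 48.0% of the level left. In TAM cells JUND was at 199 and 184 FPKM and with TPL at 72.9 and 72.3, which left 37.9% (log2 fold change -1.45, SE 0.16, adjusted p = 0.00122).

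ATF3, a stress-induced factor that represses or activates depending on its partner, was at 97.9 and 82.9 FPKM in NT and 30.7 and 34.3 in NT+TPL. It fell there by 1.59 on the log2 scale (SE 0.23, adjusted p = 0.00266). In TAM cells it was at 58.8 and 44.7 FPKM with DMSO and at 28.1 and 40.9 with TPL. Both TPL libraries were below both DMSO libraries, but the log2 fold change of -0.66 (SE 0.22) did not pass (adjusted p = 0.0594). It passed with DESeq2 (adjusted p = 0.0102) and with a filter of at least 10 counts in every library (adjusted p = 0.0435). The level left was 35.9% ± 5.08 in NT and 66.7% ± 21.8 in TAM cells, with the error carried from the SDs of both groups, as for FOS.

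**Figure D2:**
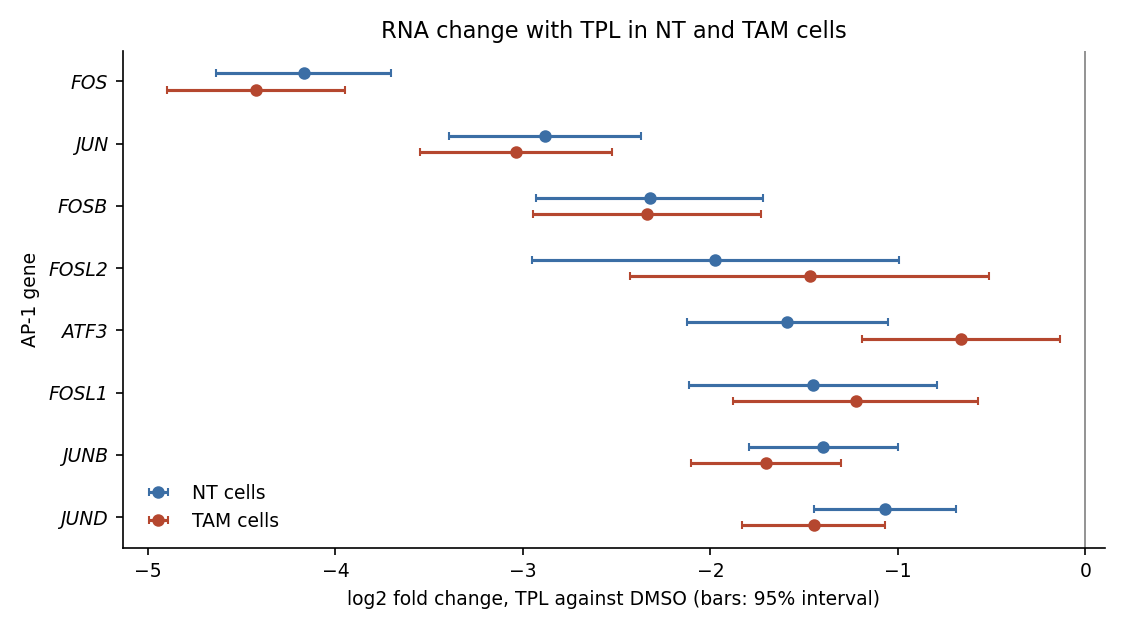
Fitted log2 fold change of each AP-1 gene with TPL against DMSO, in NT cells (blue) and TAM cells (red), with 95% intervals from the edgeR fit. Points are ordered from FOS at -4.17 and -4.42 to JUND at -1.07 and -1.45, and ATF3 in TAM cells lies closest to 0 at -0.66.

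The make-up of the AP-1 RNA pool was another one with TPL. The summed level of the 8 genes was 1893 ± 25.6 FPKM (SD, n = 2) in NT and 1751 ± 249 in TAM, and with TPL it was 428 ± 101 and 401 ± 8.54. FOS held 28.5% ± 2.33 of this sum in NT and 28.8% ± 0.00862 in TAM, and with TPL 7.11% ± 0.547 and 6.07% ± 1.02. FOSB kept its share more nearly, at 27.2% ± 0.860 in NT and 17.0% ± 2.17 in TAM, and with TPL at 23.9% ± 2.41 and 15.3% ± 0.287. The share of JUND was 10.6% ± 2.01 in NT and 11% ± 0.952 in TAM, and with TPL 22.6% ± 2.38 and 18.1% ± 0.291. JUNB held 9.81% ± 0.202 in NT and 15.2% ± 0.317 in TAM, and with TPL 16.7% ± 0.726 and 21.1% ± 1.29. FOSL1 held 9.90% ± 0.0188 in NT and 12.7% ± 2.32 in TAM, and with TPL 15.7% ± 3.26 and 22.9% ± 5.28, the highest mean share in TAM+TPL. The shares were not tested. As shares of expected counts, which weight longer transcripts more, FOS held 23.7% in NT and 6.36% in NT+TPL. By counts FOSB held more than FOS in both groups, at 39.0% in NT and 36.9% in NT+TPL.

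With TPL the order of levels was another one. In NT+TPL, FOSB and JUND had the highest means with overlapping libraries, and FOSL1 and JUNB each overlapped FOSB. FOS and ATF3 overlapped in the middle, and JUN and FOSL2 were lowest. In TAM+TPL, FOSL1 and JUNB led and overlapped, followed by JUND, FOSB and ATF3, none of which overlapped the next, and JUN and FOS overlapped just above FOSL2. FOS, first in both groups with DMSO, was in place 6 in NT+TPL and place 7 in TAM+TPL.

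**Figure D3:**
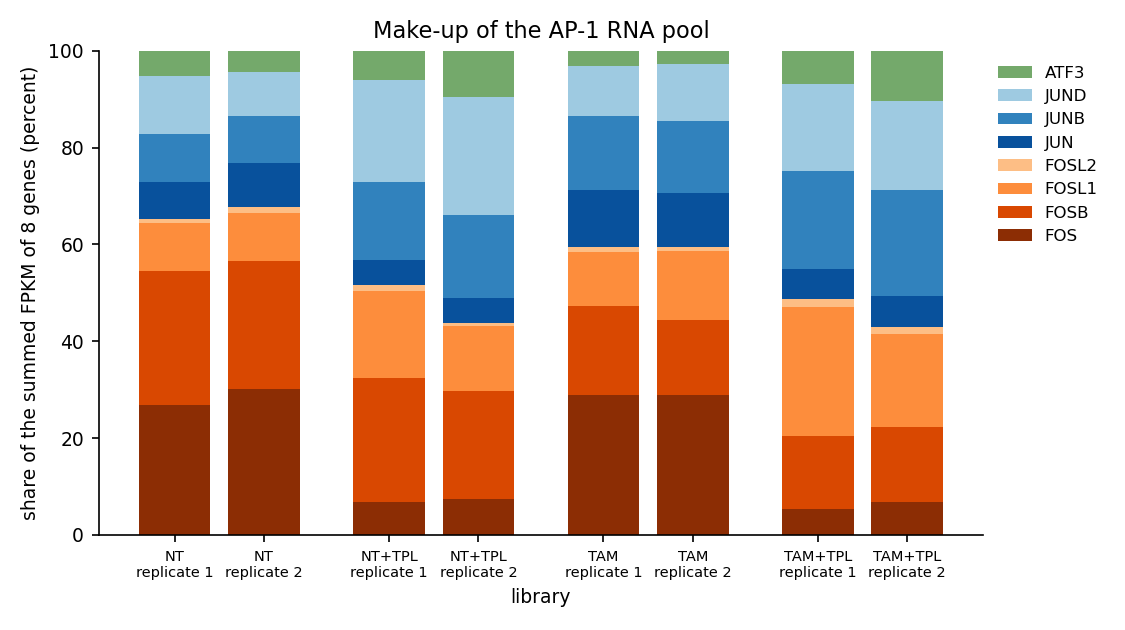
Share of each AP-1 gene in the summed FPKM of the 8 genes, as stacked bars from 0 to 100% for each of 8 RNA-Seq libraries. The darkest bar, FOS, takes 26.8 and 30.1% in the NT libraries and 6.72 and 7.5% in the NT+TPL libraries.

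With DMSO, ATF3 and FOSB were lower and JUNB and FOSL1 higher in both TAM libraries than in both NT libraries, but none of them passed the test. The share of all genes without overlap between these groups was not counted, so this separation is a description only. Here 0 of 8 members passed an adjusted p of 0.05 in edgeR, against 6.84% of all genes, and 3 had an unadjusted p under 0.05, as did 19.9% of all genes. ATF3 was at 97.9 and 82.9 FPKM in NT and at 58.8 and 44.7 in TAM, without overlap, with a log2 fold change of -0.83 (95% interval -1.35 to -0.30, adjusted p = 0.0823). FOSB was also lower in both TAM libraries, with a log2 fold change of -0.76 (95% interval -1.34 to -0.18, adjusted p = 0.138). JUNB was higher in both, with a log2 fold change of 0.54 (95% interval 0.15 to 0.92, adjusted p = 0.120). DESeq2 passed these 3 genes, with adjusted p values of 0.00243, 0.0236 and 0.00943. It passed 2066 of all genes, where edgeR passed 1160. FOSL1 was higher in both TAM libraries with a log2 fold change of 0.23 (adjusted p = 0.716). FOS (-0.08), JUN (0.35), FOSL2 (-0.04) and JUND (-0.04) overlapped between the states. With GAPDH as the reference, the median of all genes between TAM and NT cells moved from -0.03 to -0.50, and JUN and FOSL1 then had log2 fold changes of -0.14 and -0.24.

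With TPL in both states, 0 of 8 members passed between TAM and NT cells, against 7.03% of all genes. An unadjusted p under 0.05 was found for 21.3% of all genes and for 2 members. These were FOSB, with a log2 fold change of -0.77 (95% interval -1.36 to -0.19, adjusted p = 0.126), and JUND, with -0.42 (95% interval -0.80 to -0.04, adjusted p = 0.188), and both were lower in each TAM+TPL library than in each NT+TPL library. JUNB was higher in each TAM+TPL library, with a log2 fold change of 0.23 (adjusted p = 0.490). The share of all genes without overlap was not counted here either. DESeq2 passed FOSB (adjusted p = 0.0205), and 2289 of all genes, where edgeR passed 1192.

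The difference between the TPL effects in TAM and NT cells, tested as an interaction term, passed for 0 of 8 members, against 0.165% of all genes. DESeq2 also passed 0 members, and 519 of all genes. It was widest for ATF3, whose log2 fold change was 0.93 higher in TAM cells (95% interval 0.18 to 1.67, unadjusted p = 0.0216, adjusted p = 0.375), the 1 member with an unadjusted p under 0.05, as 10.6% of all genes had. The other 7 differences lay between -0.38 (JUND, 95% interval -0.91 to 0.15) and 0.50 (FOSL2, 95% interval -0.84 to 1.84). For FOS the difference was -0.25 (95% interval -0.84 to 0.34), and for JUN -0.15 (95% interval -0.83 to 0.52), and intervals of this width do not show that both states respond alike.

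RNAPII ChIP-Seq gave the positions of the polymerase at these genes. The lists hold starts and ends of peaks, with no height or read count, and with 1 list per condition there is no replicate and no test. The peak names carry a cutoff of 0.02 in the NT, NT+TPL and TAM+TPL lists and a q of 0.1 in the TAM list, so the calling may have differed, and the median width of a listed peak was 632 bases in NT and 406 in TAM, and with TPL 553 and 456. A peak lay over the main TSS of 8 of 8 members in NT and 7 in TAM, and with TPL of 7 and 8, while 47.8 and 42.2%, and with TPL 38.3 and 37.5%, of 19737 TSSs of protein-coding genes had one.

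Over FOS, JUN, JUNB and FOSL2 the peaks without TPL were broad, each wider than at least 96.8% of the peaks over other TSSs of the list. The FOS peak was at chr14:75745278-75748766 in NT, 3489 bases that reached 3235 bases past the TSS and over 95.1% of the transcript. With TPL it was 1475 bases wide in NT cells and reached 1070 bases past the TSS. In TAM cells it was 4980 bases wide, over the whole transcript, and 2323 bases with TPL. On the side before the TSS, the FOS peak with TPL reached farther out, 404 against 253 bases in NT and 359 against 152 in TAM cells. JUN had peaks of 4076 bases in NT (chr1:59247176-59251251) and 1429 in NT+TPL, but 4036 in TAM and 3535 in TAM+TPL. JUNB (chr19:12901970-12905466 in NT) lay entirely inside its peak in each of the 4 lists, with widths of 3497 bases in NT and 3863 in TAM, and with TPL 2858 and 3044. FOSL2 had a peak of 5805 bases in NT (chr2:28613028-28618832), none over its TSS in NT+TPL, and in TAM cells 5185 bases with DMSO and 930 with TPL. Separate FOSL2 peaks past the TSS ran from 2400 to 3156 bases in TAM and from 2709 to 3008 in TAM+TPL. Of all TSSs with a peak over 2000 bases without TPL and a peak in both lists, 8.80% in NT and 12.5% in TAM cells had a wider peak with TPL, and the median width was 2966 bases without and 1240.5 with TPL in NT and 3343 and 1462 in TAM cells. Among TSSs with a peak without TPL, none was listed with TPL for 22.9% in NT and 19.1% in TAM cells.

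FOSB and ATF3 showed the opposite width change. Their peaks without TPL were narrow and stayed close to the TSS, and were wider with TPL in both states. The FOSB peak was 363 bases in NT (chr19:45971095-45971457) and 812 in NT+TPL, and 251 bases in TAM and 611 in TAM+TPL. The ATF3 peak was 297 bases in NT (chr1:212781992-212782288) and 573 in NT+TPL, and 251 bases in TAM and 798 in TAM+TPL. The ratios of width with TPL to width without were 2.24 and 2.43 for FOSB and 1.93 and 3.18 for ATF3, above those of 93.6 to 96.9% of TSSs with a peak in both lists. Of such TSSs, 37% in NT and 55.1% in TAM cells had a wider peak with TPL, and among those with a peak under 400 bases without TPL the share was 70.4 and 77.2%. Both genes fell in RNA in NT cells while their listed peaks were wider, and FOSB did so in TAM cells as well. JUND had peaks of 1654 bases in NT (chr19:18391823-18393476), 787 in NT+TPL, and in TAM cells 1213 with DMSO and 1045 with TPL, which reached farther before the TSS than past it in each list. FOSL1 had peaks of 2361 bases in NT (chr11:65665727-65668087), 1689 in NT+TPL and 1583 in TAM+TPL. In the TAM list no peak held its TSS, and the nearest, 967 bases wide, ran from 291 to 1257 bases past the TSS.

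**Figure D4:**
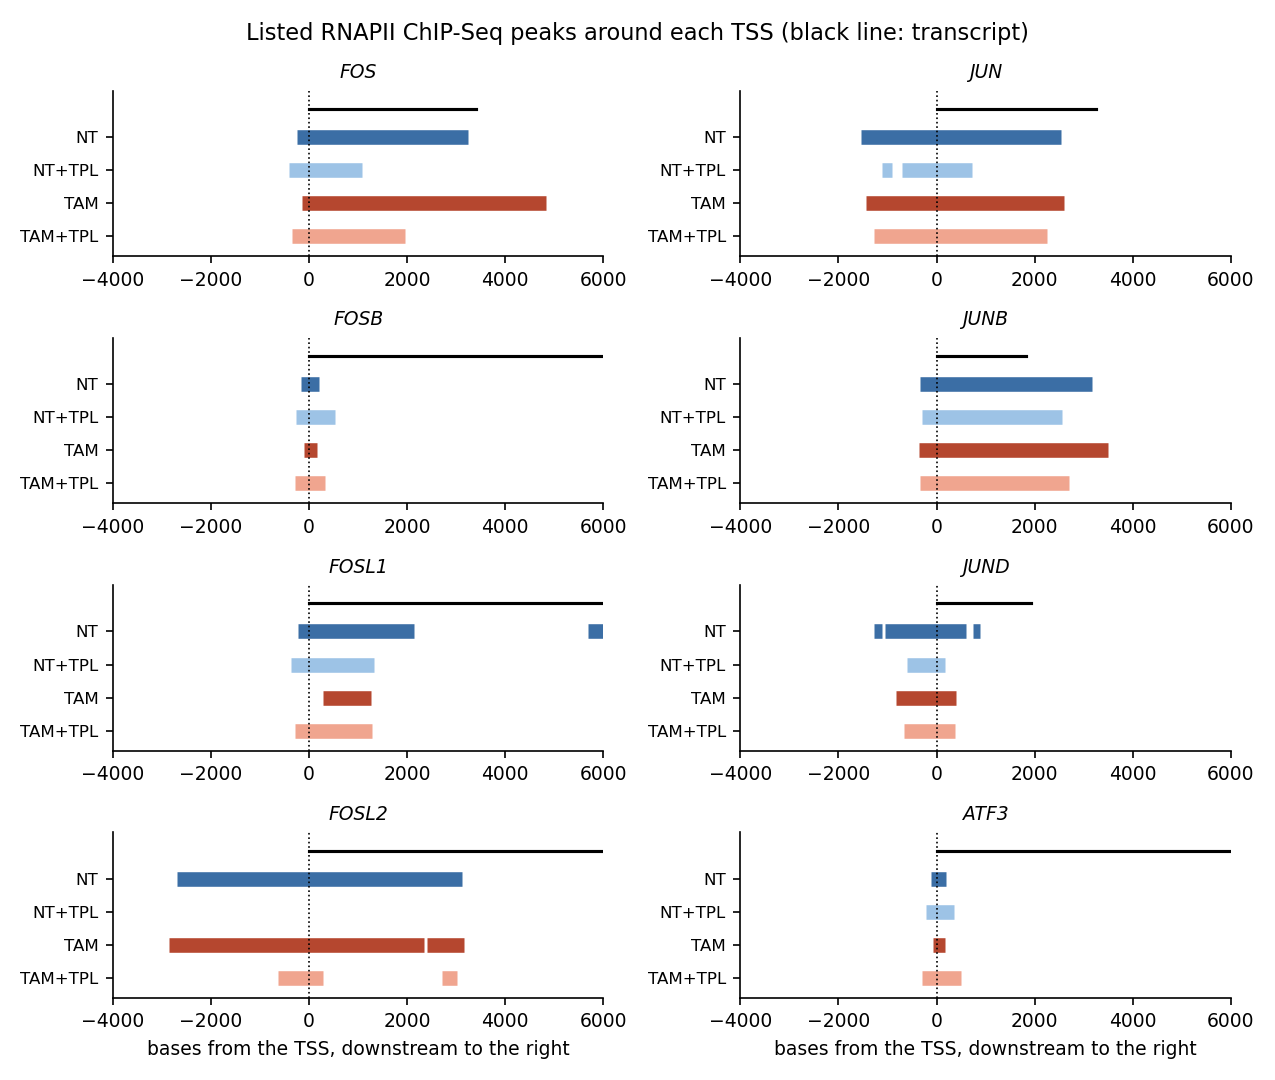
Extent of the listed RNAPII ChIP-Seq peaks around the TSS of each AP-1 gene, in bases from the TSS, with 1 bar row per list and the transcript as a black line above, cut at the panel's edge. The FOS bar ends 3235 bases past the TSS in NT and 1070 in NT+TPL, while the FOSB and ATF3 bars are longer with TPL than without.

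Genes whose profile was most like that of each member were sought among 14488 genes with a mean of at least 1 FPKM, by the root mean square difference of log2(FPKM + 1), centred per gene, over the 8 libraries. For FOS these were KLF6 (0.11) and DUSP1 (0.15), a zinc finger factor and a MAP kinase phosphatase, against a spread of FOS itself of 2.12. KLF6 ranged from 7.60 to 215 FPKM and DUSP1 from 21.4 to 621. JUN was nearest to RGS19 (0.20) and PHF23 (0.20), FOSB to SOX12 (0.17) and ASAP2 (0.19), JUNB to NCKIPSD (0.10) and C19orf47 (0.12), and JUND to SARS2 (0.10) and CXXC1 (0.10). FOSL1 was nearest to PXN-AS1 (0.08) and PXN (0.14), an antisense pair whose reads cannot be told apart unless counting used strand, which is not given in the sources used here. FOSL2 was nearest to an accession-named entry of MRTFB (0.16) and to PROSER1 (0.16), and ATF3 to PRR15 (0.18) and MVD (0.18). Within the family the nearest profiles were those of FOSL1 and FOSL2 (0.25) and of FOSL1 and JUNB (0.26), and the farthest those of FOS and ATF3 (1.64). These are descriptions of likeness over 8 libraries, and the libraries with TPL carry most of the spread.

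Of all genes tested, 17.2% rose and 19.8% fell with TPL in NT cells and 14.3% rose and 18.6% fell in TAM cells, and the lists that follow are to be read against these shares. Of 18 other basic leucine zipper genes that can meet AP-1 subunits, 3 rose and 5 fell with TPL in NT cells, and 3 rose and 5 fell in TAM cells, with medians of -0.14 and -0.16 in log2 fold change. BATF3, a JUN partner of dendritic cells, fell from 5.82 and 5.20 FPKM in NT to 0.40 and 0.81 in NT+TPL (log2 fold change -3.15, adjusted p = 0.00122), and was at 39.9 and 36.0 in TAM cells (2.80 against NT, adjusted p = 0.00217). CEBPB, a C/EBP factor of inflammatory genes, fell in TAM cells from 90.7 and 81.6 FPKM to 9.46 and 16.8 (-2.76, adjusted p = 0.000827). JDP2, a repressor that pairs with JUN, fell in NT cells from 3.67 and 3.90 FPKM to 1.60 and 0.79 (-1.69, adjusted p = 0.0111), a call lost without the second NT library (adjusted p = 0.0559). In the other direction, DDIT3, a stress-induced C/EBP relative, rose in NT cells from 1.5 and 2.08 FPKM to 5.70 and 6.43 (1.84, adjusted p = 0.0113), a call lost without the first NT library (adjusted p = 0.0624). CREB5 rose in TAM cells from 0.86 and 1.03 to 5.36 and 5.45 (2.46, adjusted p = 0.000367). BATF2 was at 0.13 and 0.25 FPKM in NT and 2.75 and 1.47 in TAM, with TPL at 0.34 and 0.44 in the latter, so it rose with transformation (3.48, adjusted p = 0.0250) and fell with TPL in TAM cells (-2.50, adjusted p = 0.0214), on counts of 46 and 25 at most. Neither BATF2 call held without 1 of the libraries compared (adjusted p up to 0.174 and 0.149). MAFF, a small MAF protein, fell from 30.1 and 20.7 FPKM in NT to 8.45 and 7.83 in TAM (-1.66, adjusted p = 0.00478), a call lost without the second TAM library (adjusted p = 0.0584).

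Of 18 kinases and promoter factors that act upstream of FOS and JUN, 2 rose and 7 fell with TPL in NT cells and 1 rose and 7 fell in TAM cells, with medians of -0.56 and -0.48. MAP2K7, a kinase that activates JNK, fell from 23.6 and 21.4 FPKM to 7.61 and 6.01 in NT (-1.73, adjusted p = 0.000647) and from 26.4 and 22.8 to 6.13 and 7.19 in TAM cells (-1.93, adjusted p = 0.00054). RPS6KA1, an ERK-activated kinase, fell by 1.66 on the log2 scale in NT (adjusted p = 0.00183) and by 1.75 in TAM cells (adjusted p = 0.00172). ELK3, a ternary complex factor of the FOS promoter, fell in NT cells from 15.2 and 24.8 FPKM to 9.86 and 3.90 (-1.56, adjusted p = 0.0231), a call lost without the second NT library (adjusted p = 0.123) and in the fit of only the groups compared (adjusted p = 0.0733). SRF, which binds with it, rose by 1.18 in NT (adjusted p = 0.00243) and by 0.88 in TAM cells (adjusted p = 0.00798), named here after its values were seen. Between TAM and NT cells with DMSO, 3 of the 18 fell, as did 3.39% of all genes. MAPK3, which encodes ERK1, went from 20 and 18.8 FPKM to 5.97 and 4.66 (-1.85, adjusted p = 0.00471), a call lost without the second TAM library (adjusted p = 0.0527). The row of SRC went from 27.9 and 36.4 FPKM to 14.8 and 10.7 (-1.32, adjusted p = 0.0276), and with TPL in TAM cells to 4.37 and 4.72 (-1.54, adjusted p = 0.00615). The first of these SRC calls was lost without any 1 of the NT, TAM or TAM+TPL libraries (adjusted p from 0.0681 to 0.192) and the second without the first TAM+TPL library (adjusted p = 0.0553). Whether reads of the v-Src transgene count in this row is not given. MRTFA, an SRF coactivator with 1 further entry under an accession, fell by 1.16 (adjusted p = 0.0485), a call lost when any 1 of the NT, TAM or TAM+TPL libraries was left out (adjusted p up to 0.259), and with upper quartile scaling or DESeq2 size factors (adjusted p = 0.0536 and 0.0575).

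Among 8 genes for the turnover of AP-1 RNA and protein, 5 fell and 1 rose with TPL in NT cells and 5 fell in TAM cells, with medians of -1.11 in both. The ZFP36 family, whose proteins bind AU-rich elements and speed the decay of mRNAs such as FOS, fell in both states. ZFP36L1 was at 384 and 585 FPKM in NT and 28.6 and 18.0 in NT+TPL (-4.23, adjusted p = 0.000304), and in TAM cells at 318 and 321 with DMSO and 20.2 and 15.7 with TPL (-4.05, adjusted p = 0.000392). ZFP36 was at 975 and 959 FPKM in NT and 78.4 and 43.8 in NT+TPL (-4.00, adjusted p = 0.000259), and in TAM cells at 1205 and 1011 with DMSO and 101 and 92.1 with TPL (-3.57, adjusted p = 0.000385). ZFP36L2 fell by 3.48 on the log2 scale in NT (adjusted p = 0.000623) and by 2.92 in TAM cells (adjusted p = 0.00117). COP1, a ubiquitin ligase for JUN, fell by 1.45 in NT (adjusted p = 0.00156) and by 1.54 in TAM cells (adjusted p = 0.0014), and was named after its values were seen.

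Of 26 genes known as AP-1 targets, 22 were tested, and 1 rose and 10 fell with TPL in NT cells, and 1 rose and 7 fell in TAM cells, with medians of -1.0 and -0.19. CXCL8, a neutrophil chemokine, fell from 41.6 and 39.2 FPKM to 3.49 and 2.16 in NT (-3.84, adjusted p = 0.000195) and from 82.2 and 83.3 to 6.23 and 5.50 in TAM cells (-3.87, adjusted p = 0.000234). MMP3, a matrix metalloprotease, fell in NT cells from 13.7 and 16.1 FPKM to 1.30 and 1.12 (-3.63, adjusted p = 0.000439). LIF, a cytokine, fell there from 3.62 and 5.49 FPKM to 0.49 and 0.33 (-3.48, adjusted p = 0.0153), a call lost without the second NT or the second NT+TPL library (adjusted p = 0.0744 and 0.0719). IL6 had 29 and 22 counts in TAM and 0 and 1 in TAM+TPL (adjusted p = 0.0251), a ratio of 0.021 with an exact interval from 0.00052 to 0.122 for counting error only, has 1 further entry under an accession, and no longer passed with any TAM or TAM+TPL library left out (adjusted p from 0.0817 to 0.134). The target that rose was HBEGF, an EGF receptor ligand. It rose by 3.28 on the log2 scale in NT cells (adjusted p = 0.000408), and in TAM cells from 7.60 and 5.32 FPKM to 81.2 and 69.6 (3.50, adjusted p = 0.000419).

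Between TAM and NT cells with DMSO, 4 of these 22 targets rose and 3 fell, with a median of -0.01, while 3.46% of all genes rose and 3.39% fell. VEGFA, the angiogenic growth factor, rose from 17.9 and 19.1 to 74 and 74.6 FPKM (1.99, adjusted p = 0.000439). MMP3 fell from 13.7 and 16.1 to 3.07 and 2.45 FPKM (-2.41, adjusted p = 0.00364). SPP1, a secreted phosphoprotein, had 0 counts in both NT libraries and 27 and 50 in TAM, at least 24.9-fold higher against a floor of 3 counts over the NT group (adjusted p = 0.0207), and its call was lost without any 1 of the NT, TAM or TAM+TPL libraries (adjusted p up to 0.0999).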

How the data were processed

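TPL was used at 125 nM. For RNA-Seq of poly-A RNA, the authors deposited expected counts per gene, without scaling, from Bowtie2 mapping and RSEM. The deposited FPKM values came from the same RSEM runs and are scaled by effective length and mapped reads. A gene missing from a library's file was taken as 0. The authors made the peak lists from RNAPII ChIP reads on hg19, calling over input (the submitters' processing notes name MACS 1.4.2) and, per their methods, keeping peaks in a window around a TSS, and the ChIP signal is not used here. Of 23604 genes, 21077 were named by gene ID and 2382 by RefSeq accession.

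Expected counts were rounded and fitted in edgeR 4.0.16 (R 4.3.3) with TMM scaling, its low-count filter, the 4 groups in a single model, the quasi-likelihood test and Benjamini-Hochberg adjustment over 16948 genes. Each group has 2 biological replicates per the authors' methods, and the p values rest on their spread (common dispersion 0.099). "Rose" and "fell" mean an adjusted p of at most 0.05. The fit was tested on simulated data. TSSs and promoter bases came from GENCODE 44 on GRCh37, starts are counted from 1, and a peak counted when it held the TSS of the Ensembl canonical transcript.

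Named genes are the 8 members, per list and comparison up to 3 genes with the largest log2 fold change among those with an adjusted p of at most 0.05 and libraries that did not overlap, and the 2 nearest profiles of each member. The members and lists were chosen with earlier results of these data known. Alternatives were DESeq2 1.42.0, its size factors, upper quartile and GAPDH scaling, 2 other filters, a replicate block, a fit of the compared groups only, limma 3.58.1 on log2(FPKM + 1) and log2(FPKM + 0.1), a looser call and leaving out each library. Tables and plots used Python 3.11.15, numpy 2.4.6, pandas 2.3.3, scipy 1.17.1 and matplotlib 3.10.9.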

Additional observations from a re-analysis of the deposited data

How the results depend on the processing

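The counts of members that fell with TPL at an adjusted p of at most 0.05 (8 in NT and 7 in TAM cells) stayed within 1.5 times under every alternative run, and no member's TPL change turned direction. The stricter limits were less stable. In NT cells they were met by 2 members and 460 genes, and by 7 and 1598 with DESeq2, 5 and 998 with at least 10 counts in every library, 5 members with GAPDH as the reference, 4 members without a filter, 305 genes with upper quartile scaling, 0 and 0 with only the groups compared, and 7 and 1918 at an adjusted p of 0.05 with the same fold. In TAM cells they were met by 3 members and 345 genes, and by 6 and 1393 with DESeq2, 5 and 871 with at least 10 counts, 5 and 521 without a filter, 207 genes with GAPDH, 210 with upper quartile scaling, 201 with only the groups compared, and 7 and 1717 at the looser p. With a library left out, a lone library was assumed to vary like the other groups: the stricter limits were then met by 0 to 1 members and 0 to 139 genes in NT and 0 to 4 members and 0 to 412 genes in TAM cells, and genes lower at an adjusted p of 0.05 numbered 1958 to 3468 and 1493 to 3587. The cause was not tested.

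The replicate numbers did not pair the samples: the correlations of same-numbered deviations between groups were -0.135 to 0.050. With a replicate block, the stricter limits were met by 0 members and 0 genes in either state, the difference of the TPL effects passed for 1 gene in place of 28, and FOSB had a difference of 0.044. No member's call at an adjusted p of 0.05 changed, while IL6 with TPL in TAM cells and BATF2, SRC and SPP1 between TAM and NT cells with DMSO did not pass.

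Between TAM and NT cells with DMSO, 3 members and 2066 genes passed with DESeq2, 2 and 2008 with GAPDH, 1 member with at least 10 counts, and 396 to 1456 genes with a library left out, against 0 and 1160. GAPDH gave -0.24 for FOSL1 and -0.14 for JUN. With TPL, 1 member passed with DESeq2 and 1 with GAPDH, and 2289 genes passed with DESeq2, 529 with only the groups compared, 727 with the fold limit and 332 to 1221 with a library left out, against 1192. GAPDH gave -0.024 for JUN and -0.11 for ATF3. The difference of the TPL effects passed for 519 genes with DESeq2, 2 with GAPDH, 86 with at least 10 counts, 45 without a filter, 75 and 44 with limma on log2(FPKM + 1) and log2(FPKM + 0.1), and 1 to 51 with a library left out. Differences near 0 changed sign: with GAPDH 0.013 for FOS, 0.24 for FOSB and 0.11 for JUN, and FOSB was 0.092 and 0.086 with these limma fits and 0.0086 with upper quartile scaling. With a library left out, TAM against NT cells with DMSO gave -0.23 to 0.053 for FOS, -0.31 to 0.25 for FOSL2 and -0.21 to 0.15 for JUND, with TPL -0.15 to 0.36 for ATF3 and -0.025 to 1.28 for FOSL2, and the difference -0.30 to 0.33 for FOSB, -0.15 to 0.71 for FOSL1, -0.012 to 1.30 for FOSL2 and -0.36 to 0.073 for JUN. The cause was not tested.

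IL6, SPP1 and BATF2 had at most 50 counts in any library of the comparisons named, and each group has 2 libraries. Counts were also low for 2 calls with TPL in NT cells. BATF3 had 46 and 41 counts with DMSO and 3 and 6 with TPL, and DDIT3 had 12 and 16 with DMSO and 44 and 51 with TPL. GAPDH scaling moved the median of all genes from 0.09 to -0.26 for TPL in NT cells.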
